A study of Mus musculus with 6 samples.

Results

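A set of 10 genes that define the endothelial cell was followed: Cldn5, Pecam1, Kdr, Flt1, Tie1, Tek, Eng, Emcn, Cd34 and Cd93. They were chosen as known markers of the cells that line blood vessels, and each was read from the probe set annotated to its symbol alone. All 10 were measured, each by 1 probe set, among 19938 genes in all. The data are 6 microarrays of total RNA from mouse brain cells (strain C57BL/6J), sorted by fluorescence from a dual reporter. In 3 arrays the cells were GFP+ cortical neural progenitors, and in 3 they were RFP+ cells, the differentiated neuronal progeny. The labels give the cortex as the source of the GFP+ cells and the brain, with no region, as that of the RFP+ cells. Neither the promoter behind each reporter nor the age of the mice is given in the sources used here. Nothing in the labels ties the replicates to separate mice, and p-values therefore describe the spread among these 6 samples, which may be technical.

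Endothelial cells form the inner wall of vessels. They grow into the developing cortex from a plexus around the brain, guided by vascular endothelial growth factors (VEGF) that act on receptor tyrosine kinases, while the angiopoietins and their Tie receptors steady the vessels once formed. Brain endothelium then closes its junctions with claudin-5 as the blood-brain barrier takes shape. Neither neural progenitors nor neurons are known for these genes as a set, and cortical progenitors divide close to ingrowing vessels.

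Many endothelial genes are controlled by transcription factors of the ETS family, which bind a GGAA core. The RefSeq promoter table (build GRCm38.p6) held 8 of the 10 genes, and the 250 bases upstream of each start were searched on both strands for AGGAAG and CGGAAG, which share a core and cannot match at the same position. A match was present in 5 of the 8 (Flt1, Tie1, Eng, Emcn and Cd34), against 39.2% of all 32851 promoters in the table, and 4 of the 8 had at least 2 matches, against 11.3%. No match lay in the windows of Cldn5, Kdr and Tek. These counts include Flt1, whose window lay wholly inside the annotated gene (250 of 250 bases), as did that of Kdr. Of the Tek window 203 bases lay inside the annotated gene, and of the Emcn window 16. Shown here are Tie1 (chr4:118489850-118490099, minus strand), Eng (chr2:32646345-32646594, plus strand) and Emcn (chr3:137340828-137341061, plus strand), with 2 matches each in capitals, and Cldn5 (chr16:18776597-18776846, plus strand), which had none. Each is written in the direction of its gene and ends before the annotated gene begins. A match of letters is a description and not a binding site.
Tie1: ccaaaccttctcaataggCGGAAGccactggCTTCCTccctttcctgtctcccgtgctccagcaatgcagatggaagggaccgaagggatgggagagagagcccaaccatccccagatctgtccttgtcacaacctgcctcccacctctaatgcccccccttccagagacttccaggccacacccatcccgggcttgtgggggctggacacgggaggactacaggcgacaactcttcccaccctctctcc
Eng: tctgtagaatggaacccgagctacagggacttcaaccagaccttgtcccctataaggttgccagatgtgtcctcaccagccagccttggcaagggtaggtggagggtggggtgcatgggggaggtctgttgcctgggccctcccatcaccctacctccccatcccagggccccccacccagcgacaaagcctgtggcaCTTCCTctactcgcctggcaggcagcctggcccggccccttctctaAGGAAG
Emcn: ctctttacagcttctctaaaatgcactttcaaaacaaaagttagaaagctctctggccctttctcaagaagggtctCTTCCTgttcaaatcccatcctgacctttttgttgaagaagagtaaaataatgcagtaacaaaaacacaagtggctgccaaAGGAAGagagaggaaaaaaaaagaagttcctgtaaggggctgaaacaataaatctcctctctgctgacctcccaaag
Cldn5: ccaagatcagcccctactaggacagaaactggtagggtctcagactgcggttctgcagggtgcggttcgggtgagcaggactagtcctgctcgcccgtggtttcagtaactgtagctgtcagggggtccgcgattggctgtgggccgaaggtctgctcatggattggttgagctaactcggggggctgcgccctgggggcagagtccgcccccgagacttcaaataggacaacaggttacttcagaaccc

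All 10 endothelial genes were higher in the GFP+ progenitor samples. Each passed the limma test over all genes (adjusted p below 0.05), where 13.8% of the 19938 genes were higher in GFP+ samples. The median log2 difference of the 10 was 2.58, with a range of 1.89 to 2.84, against a median of -0.08 over all genes. Every GFP+ array lay above every RFP+ array for all 10, an arrangement that 19.9% of all genes showed. Each difference is the GFP+ mean minus the RFP+ mean of log2(intensity + 16), with its standard error (SE), and folds on that scale understate the change of dim genes. In sorted bulk samples, a larger share of endothelial cells and more RNA of these genes per cell cannot be told apart.

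**Figure D1:**
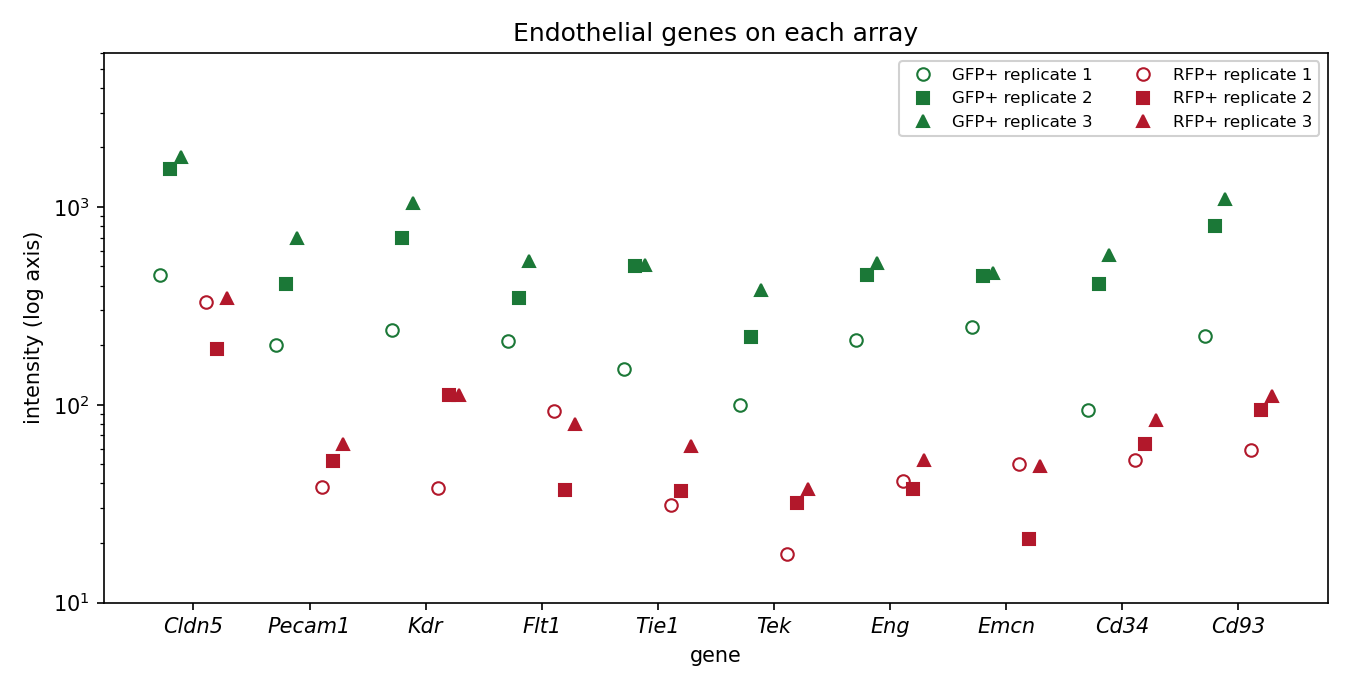
Intensity (log axis) of the 10 endothelial genes on each of the 6 arrays, GFP+ arrays in green on the left of each gene and RFP+ arrays in red on the right, with the replicate number as the symbol. All GFP+ points lie above all RFP+ points of the same gene, and the open green circle, GFP+ replicate 1, is the lowest green point in each of the 10.

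The VEGF receptor genes stood well apart between the groups. Kdr encodes the receptor that carries most of the VEGF signal in endothelium, and had intensities of 239.51, 697.39 and 1051.64 in GFP+ replicates 1, 2 and 3, against 38.12, 111.83 and 112.04 in RFP+ replicates 1, 2 and 3. The lowest GFP+ array was 2.14 times the highest RFP+ array. The log2 difference was 2.59 ± 0.39 (SE), a fold of 6.03 (adjusted p = 2.84e-05). Flt1 encodes a VEGF receptor that binds its ligand tightly and, in a soluble form, acts as a decoy. It had intensities of 210.59, 345.46 and 535.24 in GFP+ replicates 1 to 3, against 93.00, 37.14 and 79.81 in RFP+ replicates 1 to 3. The groups did not overlap, and the difference was 2.12 ± 0.29 (adjusted p = 1.21e-05).

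The Tie receptor genes behaved likewise. Tek, which encodes the angiopoietin receptor Tie2, had intensities of 99.42, 219.18 and 381.28 in GFP+ replicates 1 to 3, against 17.58, 31.93 and 37.48 in RFP+ replicates 1 to 3. GFP+ replicate 3 was 3.84 times GFP+ replicate 1, so the spread within the progenitor samples was wide, and the log2 difference between the groups was 2.32 ± 0.32 (adjusted p = 9.74e-06). Tie1, the related receptor that has no well-established ligand of its own, had intensities of 152.14, 503.99 and 510.76 in GFP+ replicates 1 to 3, against 31.22, 36.51 and 61.90 in RFP+ replicates 1 to 3. Here GFP+ replicates 2 and 3 were close to each other and replicate 1 was low. The difference was 2.63 ± 0.33 (adjusted p = 3.28e-06).

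The junction genes differed in how much signal the neuron samples kept. Cldn5, the claudin that seals the junctions of brain endothelium, had intensities of 452.27, 1548.45 and 1796.22 in GFP+ replicates 1 to 3, against 331.05, 192.24 and 345.99 in RFP+ replicates 1 to 3. GFP+ replicate 1 was only 1.31 times the highest RFP+ array, while GFP+ replicates 2 and 3 were far above it. The log2 difference was 1.89 ± 0.36, a fold of 3.70 (adjusted p = 0.000406). Pecam1, an adhesion molecule of endothelial junctions that platelets and white blood cells carry too, had intensities of 201.17, 406.65 and 695.29 in GFP+ replicates 1 to 3, against 38.49, 52.06 and 63.41 in RFP+ replicates 1 to 3. Its lowest GFP+ array was 3.17 times its highest RFP+ array, and the difference was 2.60 ± 0.31 (adjusted p = 1.44e-06).

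Among the surface glycoprotein genes, Emcn and Cd34 encode sialomucins. Emcn, which encodes endomucin, had intensities of 246.82, 446.22 and 461.51 in GFP+ replicates 1 to 3, against 50.08, 20.94 and 49.09 in RFP+ replicates 1 to 3. It had the largest log2 difference of the 10, 2.84 ± 0.26 or 7.15-fold (adjusted p = 7.17e-08), with the lowest GFP+ array at 4.93 times the highest RFP+ array. Its RFP+ values were near background, and its rank changed with the setting. Without RFP+ replicate 2, where Emcn was lowest, its difference was 2.56, below Kdr (2.80) and Eng (2.63), among others. Cd93 and Kdr had larger differences with an offset of 64 (2.14 and 2.12, against 2.08 for Emcn), and Cd93, Kdr and Tie1 did without GFP+ replicate 1 (3.23, 3.18 and 3.18, against 3.12). Cd34, also known from blood-forming progenitors, had intensities of 94.56, 408.53 and 572.53 in GFP+ replicates 1 to 3, against 52.62, 63.34 and 83.84 in RFP+ replicates 1 to 3. GFP+ replicate 1 was only at 1.13 times the highest RFP+ array. The difference was 1.89 ± 0.39 (adjusted p = 0.000932).

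Eng encodes endoglin, a co-receptor for ligands of the TGF-beta and BMP family. Its intensities were 213.37, 450.96 and 520.94 in GFP+ replicates 1 to 3, against 41.00, 37.54 and 52.31 in RFP+ replicates 1 to 3. The RFP+ arrays lay close together, and the log2 difference was 2.70 ± 0.26 (adjusted p = 1.38e-07). Cd93 encodes a lectin-like receptor of growing vessels that binds the matrix protein multimerin-2. It had intensities of 223.46, 797.60 and 1096.23 in GFP+ replicates 1 to 3, against 59.18, 93.83 and 110.27 in RFP+ replicates 1 to 3. GFP+ replicate 1 was again far below the other GFP+ arrays, and the difference was 2.57 ± 0.38 (adjusted p = 2.29e-05).

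The 1015 olfactory receptor genes, which few brain cells express, gave a guide to the near-background level, and their 95th percentile was 201.5 to 224.1 per array. On GFP+ replicates 2 and 3 all 10 endothelial genes lay above it. On GFP+ replicate 1, where the guide was 224.1, only Cldn5, Kdr and Emcn did. Cd93 (223.46), Eng (213.37), Flt1 (210.59) and Pecam1 (201.17) lay little below it there. In the RFP+ samples Cldn5 alone lay above it, on replicates 1 and 3, so the RFP+ values of the other 9 genes are near background and their folds depend on the offset of 16. With an offset of 64 the median log2 difference of the 10 was 1.97, and with an offset of 1 it was 2.83.

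The endothelial genes shared one order across the progenitor arrays. GFP+ replicate 1 was the lowest GFP+ array and GFP+ replicate 3 the highest for all 10, whereas 35.5% of all genes were lowest on GFP+ replicate 1. The share of all genes highest on GFP+ replicate 3, or in that full order, was not counted. GFP+ replicate 1 lay below the mean of GFP+ replicates 2 and 3 by a median log2 difference of -1.52 over the 10, against -0.03 over all genes. The deficit was smallest for Emcn, at -0.84, and largest for Cd34, at -2.18. The summed intensity of the 10 genes was 2133.3, 5824.4 and 7621.6 in GFP+ replicates 1 to 3, against 752.3, 677.4 and 996.1 in RFP+ replicates 1 to 3. Within the RFP+ samples, replicate 3 was the highest for 8 of the 10 genes and replicate 1 for the other 2, Flt1 and Emcn. The share of all genes in that order was not counted either.

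Arrays with the same number were compared as pairs, a match inferred from the data and not stated by the labels. GFP+ minus RFP+ was above 0 for all 10 genes in each of the 3 pairs. The median log2 difference was 1.81 in pair 1 (range 0.43 to 2.24), 2.83 in pair 2 (2.29 to 3.65) and 2.88 in pair 3 (2.32 to 3.16). Pair 1 gave the smallest median, and its lowest value, 0.43, lay far below the lowest of the other two pairs.

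Leaving out GFP+ replicate 1 raised the median log2 difference to 3.06, and all 10 genes passed (12.8% of all genes were higher in GFP+ there). It moved the fold by over 1.5 times for 4 genes, to 6.12-fold for Cd34, 9.38-fold for Cd93, 5.67-fold for Cldn5 and 9.09-fold for Kdr. With the variance moderated robustly along an intensity trend, 6 of the 10 passed, where 15.6% of all genes were higher in GFP+ samples. The 4 that did not were Cd93 (adjusted p = 0.0521), Kdr (0.0568), Cldn5 (0.0984) and Cd34 (0.130), the 4 with the largest gap between GFP+ replicate 1 and the other GFP+ arrays.

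**Figure D2:**
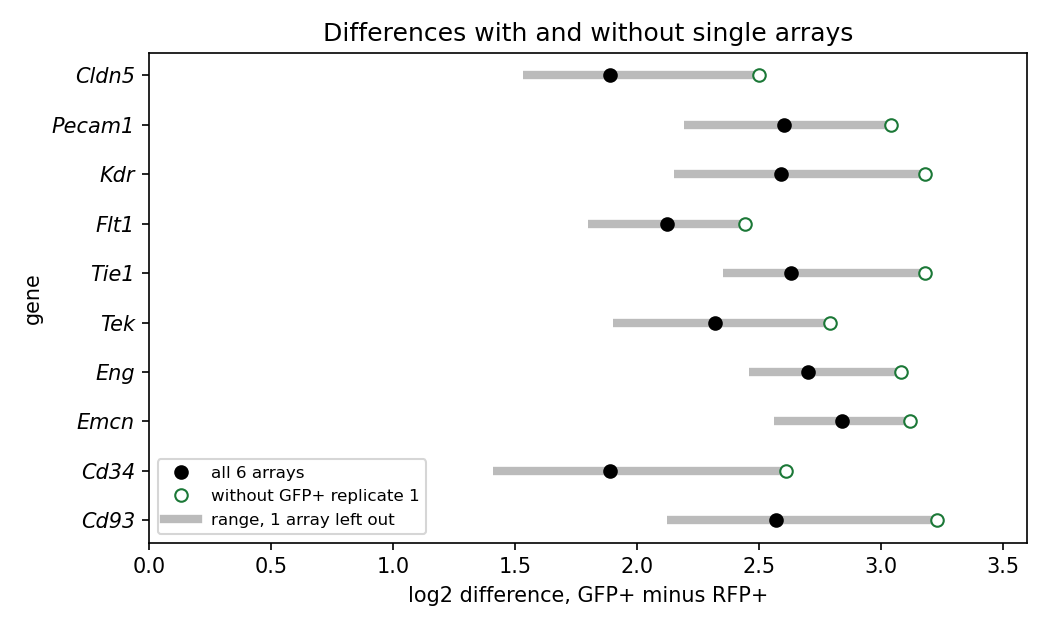
Log2 difference (GFP+ minus RFP+) of the 10 endothelial genes with all 6 arrays (black), without GFP+ replicate 1 (open green), and the range when any 1 array is left out (grey bar). The open points lie right of the black ones for all 10, furthest for Cd34 (2.61 against 1.89), and no bar reaches 0.

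Other marker lists were set beside this spread as a description. Over all genes, 13.8% were higher in GFP+ samples and 16.2% lower. Pericyte and mural cell markers, which belong to the cells that wrap vessels, were higher in GFP+ samples for 13 of 17 genes and lower for none, with a median log2 difference of 2.33. They were lowest on GFP+ replicate 1 for 3 of 17, and their GFP+ replicate 1 lay 0.15 above the mean of the other two (median log2). Their summed intensity was 9439.7 to 10697.1 in GFP+ samples and 2475.5 to 2730.8 in RFP+ samples. Vtn (17.7-fold), Rgs5 (12.8-fold) and Pdgfrb (12.2-fold), the receptor for the pericyte growth factor PDGF-B, led them. In GFP+ replicates 1 to 3, Vtn had intensities of 1046.76, 1062.03 and 1148.10, Rgs5 1765.35, 1496.27 and 2103.26, and Pdgfrb 1473.16, 1057.17 and 1393.77. Vtn and Rgs5 were highest on GFP+ replicate 3 and Pdgfrb on GFP+ replicate 1. The smooth muscle genes Acta2, Tagln, Des and Myh11 did not pass the test. The part of these cells in the endothelial result was not tested.

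Cortical progenitor markers were level across the GFP+ arrays in their mean, though not gene by gene. Of 12, all 12 were higher in GFP+ samples, against 13.8% of all genes. The median log2 difference of the 12 was 2.36, and GFP+ replicate 1 differed from the other GFP+ arrays by a median of 0.01. Slc1a3, a glutamate transporter of radial glia, was 8.16-fold higher, the Notch receptor gene Notch1 7.98-fold and its target Hes1 7.08-fold. In GFP+ replicates 1 to 3, Hes1 rose in the order of the endothelial genes (707.75, 932.69 and 1076.0). Slc1a3 was lowest on GFP+ replicate 2 (2246.62, 1432.09 and 2228.35). Of the 12 markers, 4 were lowest on GFP+ replicate 1, against 35.5% of all genes. All 11 neuron markers measured were lower in GFP+ samples, as were 16.2% of all genes, with a median of -1.70. Nefl, Nefm and Snap25 differed most (-3.12, -2.51 and -2.36). Of the 11 neuron markers, 6 were lowest on GFP+ replicate 1 among the GFP+ arrays, against 35.5% of all genes. Their median log2 difference of GFP+ replicate 1 from the other GFP+ arrays was -0.33. Progenitor markers were thus higher in the arrays labelled as progenitors, and neuron markers in those labelled as neurons.

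**Figure D3:**
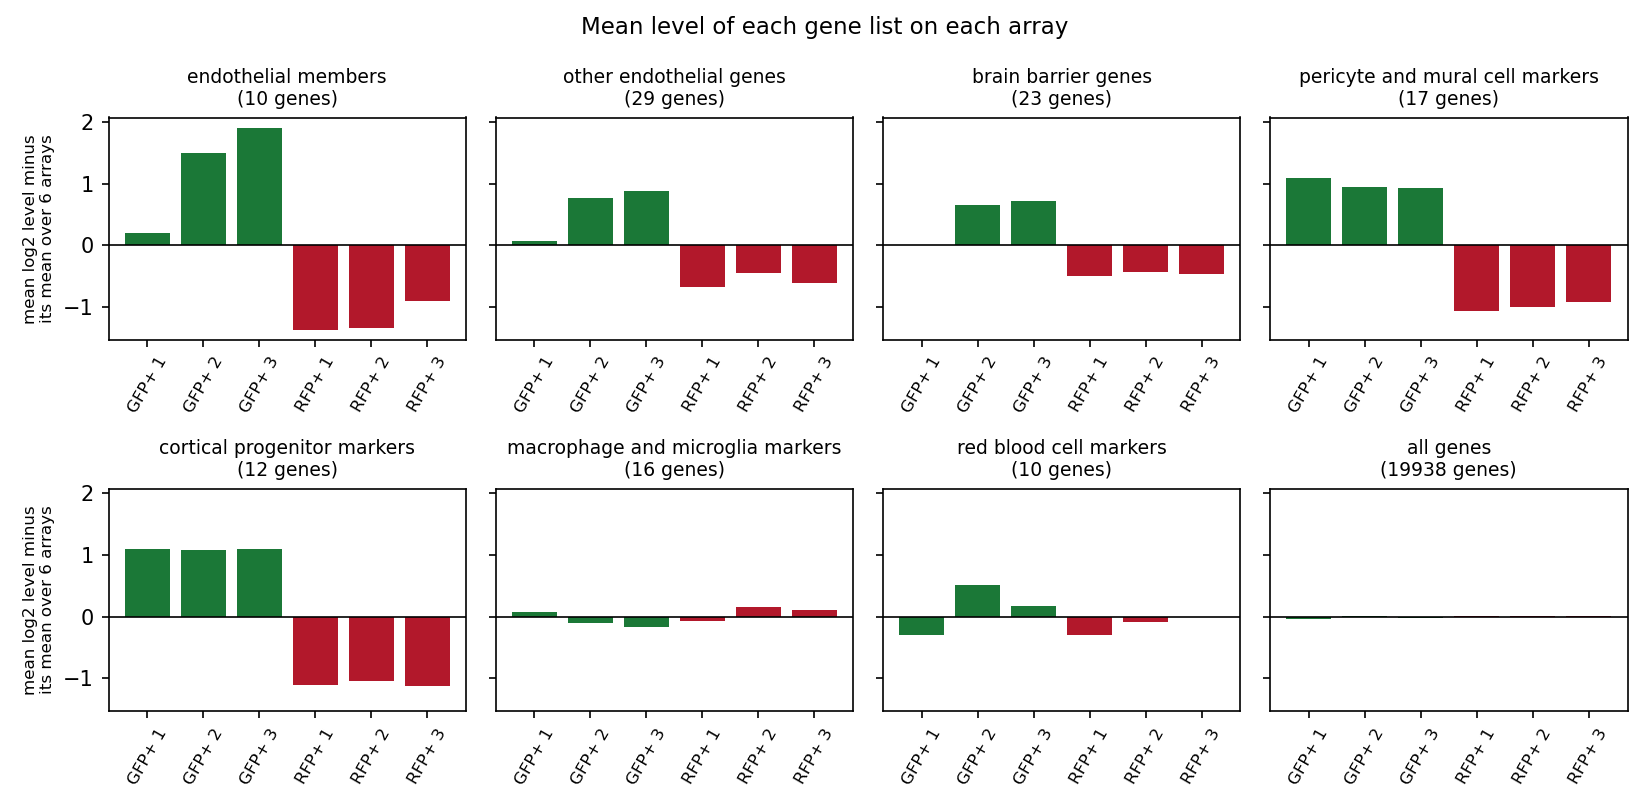
Mean log2 level of each gene list on each array, minus its mean over the 6 arrays, GFP+ arrays in green on the left and RFP+ arrays in red on the right. The endothelial genes are uneven across the green bars (7.73, 9.03 and 9.44 before centring), while mural (8.84, 8.70 and 8.69) and progenitor genes (11.84, 11.82 and 11.83) are nearly level.

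Few markers of blood and immune cells, which a vessel may bring with it, passed the test. Over all genes, 13.8% were higher in GFP+ samples and 16.2% lower. Of 16 macrophage and microglia markers, none was higher in GFP+ samples and 1, Trem2 (log2 difference -0.75 ± 0.20), was lower. Without GFP+ replicate 1, 2 were lower. Their summed intensity was 2546.6 to 3030.8 in GFP+ samples and 2657.4 to 3221.3 in RFP+ samples. Of 14 red blood cell markers 10 were measured, and the globin genes Hba-a1 and Hbb-bt were among the 4 not analysed here. Of the 10, 1 was higher, Klf1, the erythroid transcription factor gene (0.65 ± 0.23, adjusted p = 0.0379). That call was lost without RFP+ replicate 1 (adjusted p = 0.116), without RFP+ replicate 3 (0.138) and without GFP+ replicate 2 (0.172). The embryonic globin gene Hbb-y had intensities of 57.66, 696.99 and 306.01 in GFP+ replicates 1 to 3, against 55.50, 150.43 and 270.60 in RFP+ replicates 1 to 3, and its log2 difference of 0.77 ± 0.54 did not pass. The summed intensity of the 10 was 1208.5, 2487.6 and 1804.6 in GFP+ replicates 1 to 3 and 1136.2 to 1488.6 in RFP+ samples, again with GFP+ replicate 1 the lowest GFP+ array. Of 14 meningeal and fibroblast markers, 5 were higher and none lower (median 0.25), led by the collagen genes Col3a1 (3.40-fold) and Col1a2 (2.58-fold) and by Tbx18 (1.83-fold), whose 6 values all lay below the near-background guide. With any of GFP+ replicate 2, RFP+ replicate 2 and RFP+ replicate 3 left out, 3 of the 14 were higher. Their summed intensity was 1930.2 to 2127.2 in GFP+ samples and 1363.2 to 1576.2 in RFP+ samples. Among the GFP+ arrays, 9 of the 14 were lowest on replicate 1, against 35.5% of all genes. The median log2 difference of GFP+ replicate 1 from the other GFP+ arrays was -0.21 for the 14. No gene of these lists was at 0 on any array, and their part in the endothelial result was not tested.

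The ligands, partner receptors and binding partners of the 10 genes moved both ways. Of 20 genes, 9 were higher in GFP+ samples, 4 were lower and 7 did not pass, with a median log2 difference of 0.41. Over all genes 13.8% were higher and 16.2% lower, and 4 of 20 lower is near that share. Among the GFP+ arrays, 10 of the 20 were lowest on replicate 1, against 35.5% of all genes. The median log2 difference of GFP+ replicate 1 from the other GFP+ arrays was -0.17 for the 20. Of the VEGF ligands, Pgf, which binds Flt1, was 2.94-fold higher in GFP+ samples, at 395.90, 294.58 and 227.25 in GFP+ replicates 1 to 3, against 141.49, 110.39 and 45.51 in RFP+ replicates 1 to 3. It was highest on GFP+ replicate 1, the array with the lowest endothelial genes. Vegfc (1.84-fold, adjusted p = 0.00274) and Vegfb (1.64-fold, adjusted p = 0.0151) were also higher in GFP+ samples. Without GFP+ replicate 2, RFP+ replicate 3, or both arrays numbered 1, the Vegfb call was lost (adjusted p = 0.0619, 0.0945 and 0.0504). Vegfd was lower in GFP+ samples (-1.32 ± 0.23, adjusted p = 0.000161).

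Vegfa, the ligand of Kdr and Flt1 that guides vessels into the cortex, had intensities of 1813.60, 1123.47 and 1080.88 in GFP+ replicates 1 to 3, against 1197.71, 827.15 and 795.71 in RFP+ replicates 1 to 3. The groups overlapped, and the log2 difference of 0.49 ± 0.24 did not pass (adjusted p = 0.129). In the fit with the replicate number as a block it passed (adjusted p = 0.0337, with 16.7% of all genes higher in GFP+), as it did with the intensity trend (0.0479). In each of the 3 numbered pairs the GFP+ array was the higher one. Vegfa was highest on GFP+ replicate 1.

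The VEGF co-receptor genes went against the endothelial genes. Nrp1 and Nrp2 encode neuropilins, which growing axons use as semaphorin receptors. Nrp1 had intensities of 517.57, 717.54 and 792.35 in GFP+ replicates 1 to 3, against 2091.35, 2554.21 and 2958.20 in RFP+ replicates 1 to 3, and was lower in GFP+ samples (-1.89 ± 0.22, adjusted p = 1.30e-06). Nrp2 was lower too (-1.04 ± 0.21, adjusted p = 0.000618). Flt4, the receptor for Vegfc, was 1.96-fold higher in GFP+ samples, though at 76.65 to 125.76 it stayed within the near-background range, with 34.05 to 49.08 in RFP+ samples.

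Of the angiopoietins, which act on Tek, Angpt1, the agonist, was lower in GFP+ samples, at 62.70, 60.16 and 47.11 in GFP+ replicates 1 to 3, against 159.40, 153.42 and 124.74 in RFP+ replicates 1 to 3 (-1.16 ± 0.20, adjusted p = 0.000181). All 6 values lay below the near-background guide. Angpt2, which can oppose it, and Angpt4 gave differences of 0.34 ± 0.21 and 0.22 ± 0.21 that did not pass. Ptprb, the endothelial phosphatase that acts on Tek, was 3.04-fold higher in GFP+ samples (adjusted p = 5.58e-05), at 115.74, 162.65 and 284.74 in GFP+ replicates 1 to 3, against 38.38, 50.94 and 53.06 in RFP+ replicates 1 to 3. It followed the same order of GFP+ arrays as the 10 genes. So did Flt4, Mmrn2, Tgfbr2 and Bmpr2 of this list, and also Nrp1 and Vegfd, which were lower in GFP+ samples. Only the Ptprb value on GFP+ replicate 3 lay above the near-background guide, so its fold depends on the offset.

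Around endoglin, the receptor gene Acvrl1 was 2.68-fold, Tgfb1 2.24-fold and Tgfbr2 2.19-fold higher in GFP+ samples. All 6 values of Acvrl1 and of Tgfbr2 lay below the near-background guide, so their folds depend on the offset. Tgfbr1 (-0.33 ± 0.23) and Bmpr2 (0.25 ± 0.20), receptors found in many cell types, did not pass, nor did the circulating ligand genes Gdf2 (-0.45 ± 0.23) and Bmp10 (0.12 ± 0.27). Mmrn2, the binding partner of Cd93, was 3.54-fold higher in GFP+ samples. Of its values, only those on GFP+ replicates 2 and 3 lay above the near-background guide. Its intensities were 97.57, 298.71 and 335.99 in GFP+ replicates 1 to 3, against 42.28, 69.49 and 41.06 in RFP+ replicates 1 to 3, with the low GFP+ replicate 1 seen in the endothelial genes.

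**Figure D4:**
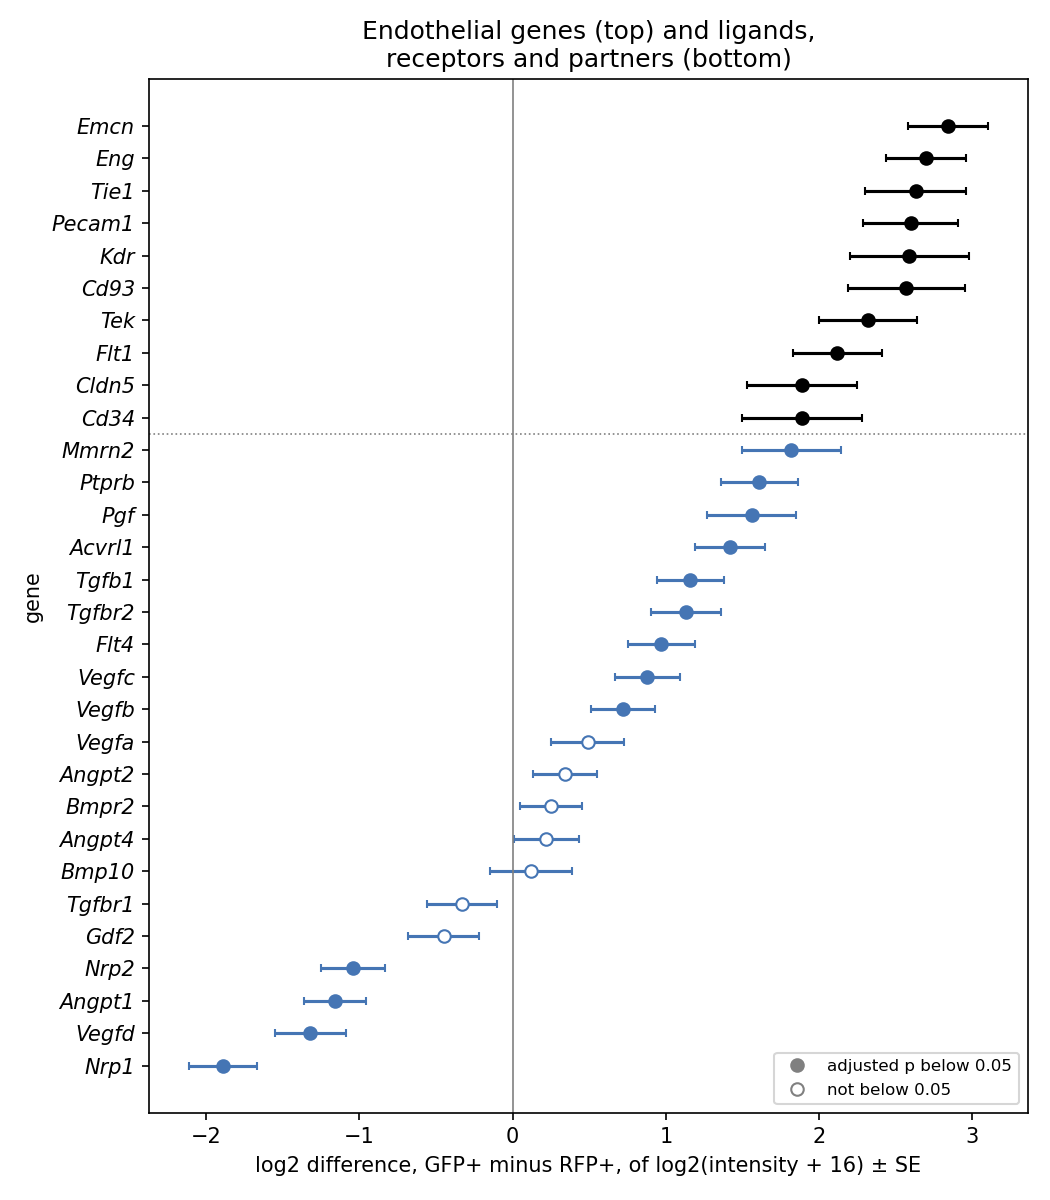
Log2 difference (GFP+ minus RFP+) with its SE for the 10 endothelial genes (black) and the 20 ligands, receptors and partners (blue), filled where the adjusted p was below 0.05. The black points lie between 1.89 and 2.84, while the blue points run from -1.89 (Nrp1) to 1.82 (Mmrn2).

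Further endothelial genes were mostly higher in GFP+ samples as well. Of 29 measured, 20 were higher and 1 lower, with a median log2 difference of 1.24. Among the GFP+ arrays, 20 of 29 were lowest on replicate 1. Over all genes, 13.8% were higher, 16.2% lower and 35.5% lowest on GFP+ replicate 1. S1pr1, a sphingosine phosphate receptor gene, was 8.43-fold higher, Adgrf5 6.99-fold and Cdh5, the endothelial cadherin gene, 5.47-fold. S1pr1 had intensities of 1042.28, 1598.76 and 1263.48 in GFP+ replicates 1 to 3, against 145.89, 151.72 and 118.38 in RFP+ replicates 1 to 3. It is also known from astrocytes and their precursors, and it lacked the steep difference between GFP+ replicates 1 and 3. Cdh5 had 137.30, 292.68 and 680.09 in GFP+ replicates 1 to 3, against 14.24, 64.28 and 66.69 in RFP+ replicates 1 to 3, and its call was lost with the intensity trend (adjusted p = 0.0779). Rasip1 was the gene lower in GFP+ samples (-0.76 ± 0.25, adjusted p = 0.0257), a call that was lost without RFP+ replicate 1 (adjusted p = 0.113), without RFP+ replicate 2 (0.0918) and without GFP+ replicate 1 (0.142).

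The next 23 genes were of the blood-brain barrier, its transporters and the Wnt receptors that induce it. Of these, 16 were higher in GFP+ samples and 1 lower (median 1.0). Among the GFP+ arrays, 18 of 23 were lowest on replicate 1. Over all genes, 13.8% were higher, 16.2% lower and 35.5% lowest on GFP+ replicate 1. Foxf2, a transcription factor gene known from brain pericytes, was 5.99-fold higher, the iron exporter gene Slc40a1 3.90-fold and the thyroid hormone transporter gene Slco1c1 3.87-fold. Slco1c1 had intensities of 154.05, 334.39 and 509.14 in GFP+ replicates 1 to 3, against 52.06, 81.28 and 65.32 in RFP+ replicates 1 to 3, in the same order of GFP+ arrays as the 10 genes. Slc16a1, a lactate and ketone transporter gene, was lower in GFP+ samples (-0.71 ± 0.21, adjusted p = 0.0162), and its call was lost without GFP+ replicate 1 (adjusted p = 0.0760), without RFP+ replicate 2 (0.0678) and without RFP+ replicate 3 (0.0530).

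Likeness of pattern was measured as the root mean square log2 difference, over the 6 arrays, between a gene's profile and the mean profile of the 10, each centred on its own mean. It was 0.17 (Pecam1) to 0.41 (Emcn) for the 10 themselves and 1.39 for the median gene. Outside the lists, the closest were Depdc1a (0.25), the phosphodiesterase gene Pde8a (0.30), the Frizzled receptor gene Fzd6 (0.34), the spindle gene Aspm (0.35), Rasgrp3, which encodes an activator of Ras (0.35), and the adhesion molecule gene Vcam1 (0.37). Depdc1a had intensities of 380.90, 660.19 and 716.52 in GFP+ replicates 1 to 3, against 76.64, 73.63 and 125.21 in RFP+ replicates 1 to 3. Like the 10, each of these 6 was lowest on GFP+ replicate 1 and highest on GFP+ replicate 3 among the GFP+ arrays. Aspm, a gene of dividing cells, had 729.85, 898.92 and 1305.76 there. GFP+ replicate 1 differed from the mean of the other GFP+ arrays by -0.83 (log2) for Depdc1a and -0.56 for Aspm. The measure reads both the group difference and the array order, so these likenesses are partly built into the choice. Their cause was not tested.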

How the data were processed

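The authors deposited an intensity for every probe set, on a linear scale, and per the submitters' processing notes they were made with the Affymetrix Expression Console. Its version, background correction, normalization and summarisation, and any genome build, are not given in the sources used here. Per the labels, the arrays were of the Affymetrix whole-transcript kind, with biotin label. Array medians were 210.31 to 221.1, and 53 to 112 of 35557 probe sets were at 0. For arrays, the number in each group, 3, limits the precision.

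Of the probe sets, 21789 carried 1 symbol, 1621 several, and 12147 are unnamed here. Each gene was represented by its brightest probe set (mean of all 6 arrays), giving 19938 genes with no filter on dim genes. log2(intensity + 16) was tested, two-sided, by lmFit and eBayes of limma 3.58.1 in R 4.3.3. Differences are GFP+ minus RFP+, p-values were Benjamini-Hochberg adjusted across all 19938 genes, and 0.05 was the threshold. Python 3.11.15 was used for tables and figures. The fit was tested on simulated data of 19938 genes. Among 50 genes shifted by each size, it found 2 for a shift of 1.5-fold, 21 for 2-fold, 48 for 4-fold and all 50 for 8-fold. It also called 3 of 19738 unchanged genes. Only brighter genes were shifted, and far fewer than the 5978 that passed in the data. These counts therefore do not give the power for the data or for dim genes.

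The sample titles carry replicate numbers. Deviations from the group mean correlated across genes at 0.204, 0.288 and 0.361 between arrays that share a number, and at -0.266 to 0.00416 otherwise, so the numbers were taken to pair the samples, from the data and not from a stated batch. Deviations within a group cancel out, so the negative correlations follow in part from the positive ones. The fit without the block was kept as the main one. With the block 7371 genes passed, against 5978 without it, so some calls, such as that of Vegfa, depend on this choice. The 10 genes, the lists and the tests were chosen with earlier results of these data known. Named are the 10 genes, the 20 ligands, receptors and partners, of each other list up to 3 genes past the threshold that differed most in the direction most of its passing genes took, plus 1 the other way, and the 6 nearest in pattern. The smooth muscle genes, the globin gene Hbb-y, and which list genes are given by array, were picked after their values were seen. Of 169 list entries, 162 were measured. Alternatives were the replicate block, quantile normalization, median centring, offsets of 1 and 64, a filter on the dimmest 30% of genes, averaging the probe sets of a gene, an intensity trend with robust moderation, array weights, and leaving out each array in turn or both arrays numbered 1.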

Additional observations from a re-analysis of the deposited data

How the results depend on the processing

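Of 159 recomputed values of the 10 endothelial genes, 155 kept their direction and their side of the threshold, and the 4 that did not were the calls lost with the intensity trend and robust moderation, where 6 of the 10 passed. With 1 array left out, all 10 passed each time, and the median log2 difference ran from 2.14 to 3.06. It was 1.97 with an offset of 64. Without the dimmest 30% of genes Tek was not tested and the other 9 passed. That filter reads the mean of all 6 arrays, so genes dim in RFP+ samples can stay in through their GFP+ values. Passing under it is therefore no separate support. The replicate block changed no call of the 10 genes. It moved the count of red blood cell markers that passed to 3, which was 2 with quantile normalization, 2 without the dimmest 30% of genes, 0 with an offset of 1, and 0 to 3 with 1 array left out. Of the meningeal and fibroblast markers, 3 passed with an offset of 64, 3 with the intensity trend, 2 without the dimmest 30% of genes, and 3 to 5 with 1 array left out. Of the macrophage and microglia markers, 1 to 2 passed with 1 array left out and 2 without both arrays numbered 1. The filter on the dimmest 30% takes genes out before testing. Under it 8 of 13 ligands and receptors passed (5 higher in GFP+ samples, 3 lower), and 13 of 18 further endothelial genes (12 higher, 1 lower). Of all 13956 genes tested under it, 5765 passed, 2726 higher and 3039 lower. In the main fit 5978 of 19938 genes passed, and 3850 did without both arrays numbered 1. The difference of Bmp10, which passed in no setting, ran from -0.11 to 0.50 with 1 array left out (below 0 without GFP+ replicate 1, GFP+ replicate 3 or RFP+ replicate 1) and was -0.23 without both arrays numbered 1. The causes of these shifts were not tested beyond the settings' own construction. The RFP+ values of 9 of the 10 genes lie near background, which limits their folds.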
